A study of Mus musculus with 6 samples.

Results

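MHC class I antigen presentation was examined through 10 genes of the mouse table of 54532 genes, chosen by gene symbol, with earlier results of these data known. They were the heavy chain genes H2-K1 and H2-D1, the light chain gene B2m, the peptide transporter genes Tap1 and Tap2, the tapasin gene Tapbp, the immunoproteasome genes Psmb8, Psmb9 and Psmb10, and the transactivator gene Nlrc5. Each symbol named 1 row. The 6 libraries came from MIN6, a cell line established from a mouse insulinoma and labelled as pancreatic beta cells, so they represent 1 cell line. There were 3 libraries with knockdown of PP2Ac, the catalytic subunit of the serine/threonine phosphatase PP2A, and 3 control libraries. The titles carry 1 label per group, sh2 for knockdown and shc for control. If each label stands for 1 construct, other effects of that construct cannot be told apart from loss of PP2Ac. The labels name no other treatment for either group, although the title of the series concerns lipotoxicity.

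Cells display fragments of their own proteins on MHC class I molecules, where cytotoxic T cells read them. The proteasome cuts proteins, the TAP transporter carries the peptides into the endoplasmic reticulum, tapasin holds an empty class I molecule at the transporter, and the heavy chain leaves for the cell surface only when bound to beta-2-microglobulin and a peptide. Interferons raise most of these genes, and NLRC5 drives class I promoters together with RFX, CREB/ATF and NF-Y factors. Pancreatic islets affected by autoimmune diabetes are known for high class I levels on beta cells.

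Depth was even, with 14614737 to 15551377 recovered reads in knockdown libraries and 15270436 to 16030939 in control libraries. Ppp2ca, which encodes a PP2A catalytic subunit, had 10.14, 11.4 and 10.9 FPKM in knockdown libraries, against 42.5, 34.6 and 35.6 FPKM in control libraries. The labels name PP2Ac but not the transcript that was targeted. FPKM scales the fragments of a gene to its length and to a total for the library. Here that total was not the plain read total but a scaled one, described with the processing. Beta cell markers were nearly absent. Of 15 beta cell markers, 13 had a mean below 1 FPKM and 8 were at 0 in every library, among them Ins1 and Ins2, so the libraries are named by their labels only. Expression differed at 62.4% of the 11652 tested genes (7267, limma adjusted p under 0.05), with 33.3% higher and 29.1% lower in knockdown. The median log2 change of all tested genes was 0.03. Reads from mitochondrial mRNAs made up 1.23% to 1.34% in knockdown libraries and 2.65% to 3.38% in control libraries, and the part of this difference alone in the results below was not tested. An alternative removed mitochondrial genes, rRNA and the short RNA gene Gm23935 together and rescaled each library to its original FPKM sum. No source says that the libraries of a group came from separate cultures, so the p-values measure the spread between these libraries, which may be technical.

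Most of the pathway was higher after PP2Ac knockdown, but its parts moved by very different amounts. Of the 10 genes, 8 rose, 1 fell (B2m) and 1 did not pass the threshold (Nlrc5), against 33.3% higher and 29.1% lower of all tested genes. The median log2 change of the 10 was 1.18. The immunoproteasome subunit genes rose most, by 5.12-fold to 8.13-fold in mean FPKM, tapasin and Tap1 by 3.05-fold and 2.74-fold, and the heavy chains and Tap2 by 1.49-fold to 2.05-fold. Log2 changes below are knockdown minus control on the log2(FPKM + 1) scale, with the standard error (SE) of the fit, and understate the change of low genes. Their adjusted p values come from limma with Benjamini-Hochberg adjustment over all tested genes. A rise of at least 1 on that scale was called for 6 of the 10 genes, against 5.05% of all tested genes. The libraries of the 2 groups did not overlap for any of the 10, against 68.1% of tested genes without overlap, and the knockdown libraries were all the higher ones for 8 of them, against 36.4% of tested genes. All 10 passed the filter of a mean of 1 FPKM over the 6 libraries, but Psmb8 and Psmb9 had control means below 1 and passed only through their knockdown level. Apart from these, 6 of 8 members rose, with a median log2 change of 0.79 over the 8.

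**Figure D1:**
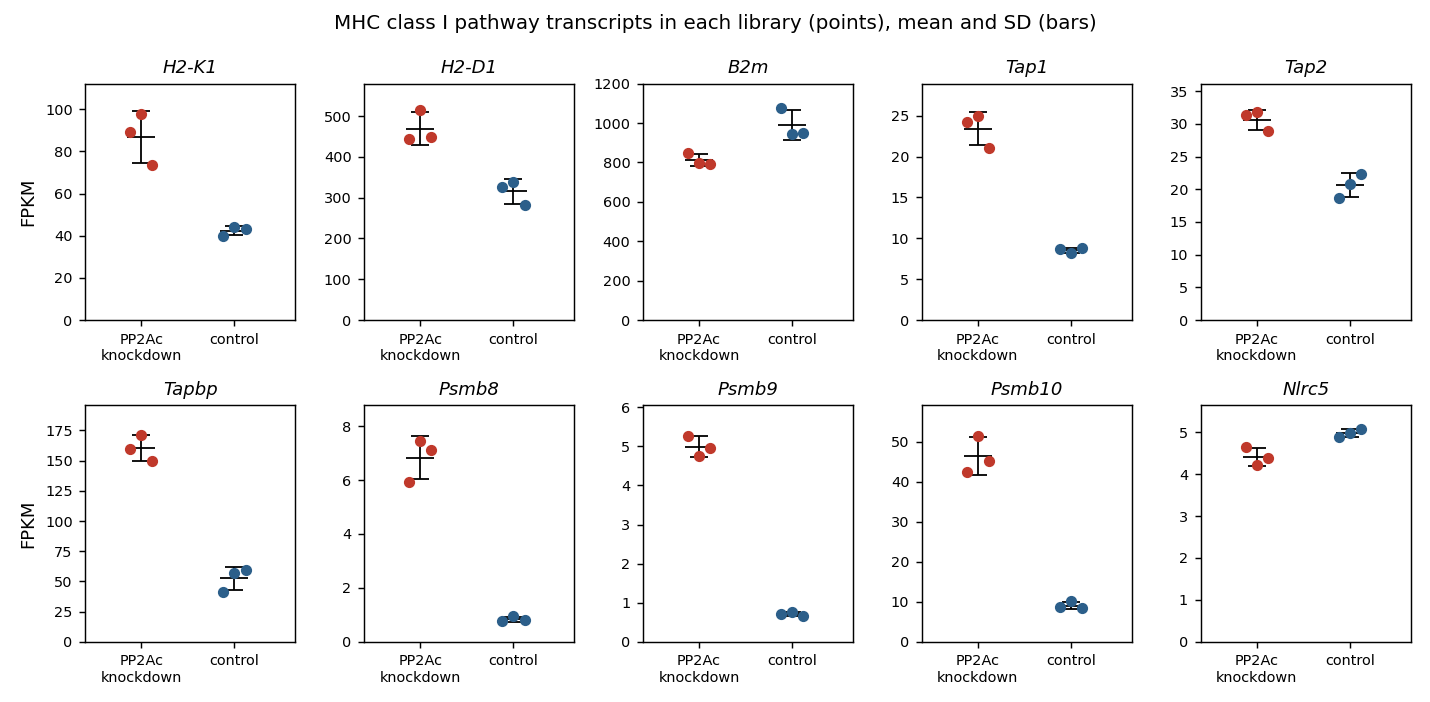
FPKM of the 10 pathway genes in each library (points; 3 PP2Ac knockdown in red, 3 control in blue), with the group mean and SD (n = 3) and each vertical axis starting at 0. The knockdown libraries lie above the control libraries for 8 genes and below them for B2m and Nlrc5.

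The heavy chain genes rose, H2-K1 more than H2-D1. H2-K1 (ENSMUSG00000061232, chromosome 17, 33996017 to 34000333, minus strand, GRCm38) encodes the classical heavy chain K. It had 89.1, 97.8 and 73.8 FPKM in knockdown libraries, against 40.1, 44.2 and 43.2 FPKM in control libraries. Every knockdown library was above every control library, and the third knockdown library was the lowest of its group. The log2 change was 1.01 (SE 0.105, limma adjusted p = 9.68e-05). H2-D1 (ENSMUSG00000073411, chromosome 17, 35262730 to 35267499, plus strand) encodes the classical heavy chain D and was the more abundant per length. Its level was 444, 515 and 448 FPKM in knockdown libraries and 326, 338 and 281 FPKM in control libraries, again without overlap. The log2 change was 0.57 (SE 0.0989, limma adjusted p = 0.00125). Within each library H2-K1 stood at 18.5% ± 1.86 of the H2-D1 level after knockdown and at 13.6% ± 1.596 in control (SD, n = 3 each), with 16.5% in the lowest knockdown library and 15.4% in the highest control library.

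Class I heavy chain genes are near-copies of each other, and the values of both are uncertain to that extent. In the GENCODE M21 transcripts, 9.63% of the distinct stretches of 50 bases in H2-K1 and 12.8% of those in H2-D1 also occur in other genes, mainly other H2 genes. The MHC is among the most variable regions between mouse strains, and no source used here gives the haplotype of these cells. The promoters of the pair are alike too. RefSeq windows (GRCm38.p6) from 250 bases before to 50 bases after the start are shown because both hold a kappa B match. Capitals mark matches to GGGNNTTCC, a kappa B pattern, and to ATTGG, an inverted CCAAT box that NF-Y recognises, on either strand. The H2-K1 window is chr17:34000284-34000583, minus strand, and the H2-D1 window is chr17:35262844-35263143, plus strand.
H2-K1: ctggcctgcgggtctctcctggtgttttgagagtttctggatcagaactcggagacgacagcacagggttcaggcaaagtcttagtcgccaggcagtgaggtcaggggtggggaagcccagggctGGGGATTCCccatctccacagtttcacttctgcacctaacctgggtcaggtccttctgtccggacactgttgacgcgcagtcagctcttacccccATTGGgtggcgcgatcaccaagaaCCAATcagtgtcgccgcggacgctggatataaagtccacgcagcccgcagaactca
H2-D1: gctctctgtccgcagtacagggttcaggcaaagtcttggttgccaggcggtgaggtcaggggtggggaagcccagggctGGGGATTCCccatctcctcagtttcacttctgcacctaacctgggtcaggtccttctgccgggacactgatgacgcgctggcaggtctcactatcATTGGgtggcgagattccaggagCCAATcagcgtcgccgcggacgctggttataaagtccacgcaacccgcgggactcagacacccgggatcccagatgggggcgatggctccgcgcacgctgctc
The kappa B match begins at position -125 from the RefSeq start in H2-K1 and at position -171 in H2-D1, and lies in both inside an identical run of 47 bases. The annotation of the table starts H2-D1 at 35262730, so the H2-D1 window lies wholly inside that gene. Of 32851 RefSeq promoter windows, 5.82% hold the kappa B pattern and 37.4% the CCAAT box. A match is a run of letters and no evidence of binding.

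B2m went the other way. B2m (ENSMUSG00000060802, chromosome 2, 122147686 to 122153083, plus strand) encodes beta-2-microglobulin, the light chain shared by all class I molecules, and had the highest level per length of the 10 genes. It had 846, 799 and 793 FPKM in knockdown libraries, against 1076, 945 and 947 FPKM in control libraries. The highest knockdown library was below the lowest control library, and the first control library was the highest of all. The log2 change was -0.28 (SE 0.0859, limma adjusted p = 0.0201). The call was lost in 4 of 17 alternatives, without knockdown library 2 (log2 change -0.27, limma adjusted p = 0.0575) or 3 (-0.26, adjusted p = 0.0507), without control library 1 (-0.22, adjusted p = 0.0777) and with no filter on low values (-0.28, adjusted p = 0.176). The fall was larger with mitochondrial genes, rRNA and Gm23935 removed (-0.44, adjusted p = 0.00499) and with protein-coding genes only (-0.38, adjusted p = 0.00604). Over 17 alternatives the log2 change was negative throughout and the adjusted p ran from 0.00121 to 0.176. None of the 50-base stretches of B2m occurs in another gene's transcripts. The sum of H2-K1 and H2-D1 was 68.5% ± 7.21 of the B2m level after knockdown and 36.2% ± 3.61 in control (SD, n = 3 each). B2m was therefore still the most abundant of the 3 per length in every library. The B2m window (chr2:122147437-122147736, plus strand) is shown because it alone among the member windows held the string GAAA, any 2 bases and GAAA. This string was the search pattern for the interferon-stimulated response element, and capitals mark its match and an ATTGG. Variant forms of the element were not searched, so the other windows are not shown to lack it.
B2m: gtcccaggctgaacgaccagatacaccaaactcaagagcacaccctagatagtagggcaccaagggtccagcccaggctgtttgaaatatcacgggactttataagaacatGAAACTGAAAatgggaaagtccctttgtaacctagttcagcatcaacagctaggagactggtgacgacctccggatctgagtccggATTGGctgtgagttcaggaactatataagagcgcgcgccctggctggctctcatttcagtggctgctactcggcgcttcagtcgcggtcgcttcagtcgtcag
That match lies at positions -139 to -130 from the start. The pattern occurs in 3.44% of all windows on either strand.

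The transporter genes were unequal. Tap1 (ENSMUSG00000037321, chromosome 17, 34187553 to 34197225, plus strand) encodes a subunit of the peptide transporter. It reached 24.2, 24.9 and 21.1 FPKM in knockdown libraries, against 8.65, 8.15 and 8.80 FPKM in control libraries. The groups were far apart, with a log2 change of 1.35 (SE 0.0802, limma adjusted p = 8.05e-06). Tap2 (ENSMUSG00000024339, chromosome 17, 34203527 to 34216321, plus strand) encodes the partner subunit. Its levels were 31.3, 31.8 and 28.9 FPKM in knockdown libraries and 18.7, 20.8 and 22.4 FPKM in control libraries. The groups did not overlap, and the log2 change was 0.55 (SE 0.0820, limma adjusted p = 0.000569). Tap1 was thus at 76.2% ± 2.90 of the Tap2 level after knockdown and at 41.5% ± 4.06 in control (SD, n = 3 each). Tapbp (ENSMUSG00000024308, chromosome 17, 33915899 to 33929288, plus strand), which encodes tapasin, had 160, 171 and 150.0 FPKM in knockdown libraries, against 41.3, 56.8 and 59.4 FPKM in control libraries. Its log2 change of 1.61 (SE 0.133, limma adjusted p = 3.27e-05) was the largest outside the proteasome genes. Tapbp overlaps Zbtb22 by 3421 bases on the same strand. Zbtb22 averaged 20.1 ± 0.819 FPKM in knockdown and 18.6 ± 0.891 FPKM in control (SD, n = 3 each) and did not pass the threshold.

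The immunoproteasome genes rose most, and Psmb8 and Psmb9 were low in control. Their products replace the constitutive catalytic subunits and favour peptides that fit class I grooves. Psmb8 (ENSMUSG00000024338, chromosome 17, 34197721 to 34201454, plus strand), which encodes the inducible beta5i subunit, had 5.93, 7.45 and 7.12 FPKM in knockdown libraries, against 0.754, 0.942 and 0.824 FPKM in control libraries. These values rest on 251, 312 and 291 reads in knockdown libraries and on 33, 40 and 37 reads in control libraries. The log2 change was 2.09 (SE 0.105, limma adjusted p = 4.43e-06). Psmb9 (ENSMUSG00000096727, chromosome 17, 34181988 to 34187764, minus strand), which encodes beta1i, had 5.27, 4.75 and 4.96 FPKM in knockdown libraries, against 0.718, 0.758 and 0.649 FPKM in control libraries. The reads were 298, 266 and 271 in knockdown libraries and 42, 43 and 39 in control libraries. Its log2 change was 1.81 (SE 0.0932, limma adjusted p = 4.63e-06). Psmb10 (ENSMUSG00000031897, chromosome 8, 105935735 to 105938444, minus strand), which encodes beta2i, was the most abundant of the 3 per length. It reached 42.4, 51.6 and 45.2 FPKM in knockdown libraries, against 8.69, 10.09 and 8.39 FPKM in control libraries. Its log2 change of 2.24 (SE 0.0965, limma adjusted p = 2.32e-06) was the largest of the 10 genes on the log2(FPKM + 1) scale, where 0.386% of tested genes had a larger one. That order depended on the pseudocount. With a pseudocount of 0.1 the log2 changes were 2.88 for Psmb8, 2.66 for Psmb9 and 2.34 for Psmb10, and limma voom on recovered reads gave 2.99, 2.79 and 2.34 in the same order of genes.

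Psmb9, Tap1, Psmb8 and Tap2 are neighbours in the MHC class II region of chromosome 17. Psmb9 and Tap1 start back to back on opposite strands and overlap by 212 bases in the annotation of the table, and without a stated strand setting reads from the overlap cannot be assigned to one of them. When both strands are searched, 4.19% of the 50-base stretches of Psmb9 occur in transcripts of another gene, Tap1 in each case. On that measure the share was 11.9% for Psmb8, 11.6% for Tap2 and 23.2% for Tapbp. On the same strand alone it was 0.227%, 0.655% and 2.87%. Of the class II genes beside the cluster, H2-DMb1 was at 0 in all libraries, and H2-Ob averaged 0.00684 FPKM in knockdown and was at 0 in control. The stretch between Psmb9 and Tap1 is shown as the Tap1 window (chr17:34187306-34187605, plus strand), of which 275 bases also belong to the Psmb9 window. The RefSeq starts of the pair are separated by 225 bases. The Psmb8 window (chr17:34197945-34198244, plus strand) is shown because it was the only member window with the STAT pattern TTCNNNGAA. Capitals mark a CCAAT box in the first and the STAT pattern in the second.
Tap1: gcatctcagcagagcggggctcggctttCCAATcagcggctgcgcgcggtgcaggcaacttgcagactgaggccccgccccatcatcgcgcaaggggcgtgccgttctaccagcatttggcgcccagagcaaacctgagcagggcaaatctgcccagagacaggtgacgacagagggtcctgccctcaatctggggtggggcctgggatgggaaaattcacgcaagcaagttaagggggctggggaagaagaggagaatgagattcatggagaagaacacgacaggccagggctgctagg
Psmb8: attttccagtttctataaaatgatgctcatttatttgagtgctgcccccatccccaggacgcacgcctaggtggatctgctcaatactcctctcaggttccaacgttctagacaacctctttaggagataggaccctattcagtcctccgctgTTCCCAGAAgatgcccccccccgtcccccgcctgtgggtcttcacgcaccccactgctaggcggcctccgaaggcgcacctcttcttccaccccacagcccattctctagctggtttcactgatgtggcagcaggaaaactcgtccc
The STAT pattern lies at positions -97 to -89 from the RefSeq start of Psmb8 and occurs in 8.30% of all windows. In the annotation of the table Psmb8 starts at 34197721, so this match lies inside the gene. The windows of Psmb8, Psmb9 and Tapbp lie wholly inside their genes in that annotation. Windows were found for 8 of the 10 genes, and neither Tap2 nor Nlrc5 was among them. The Psmb10 window held none of the 4 patterns, and 6 of the 8 genes had a CCAAT box.

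Nlrc5 itself was not higher. Nlrc5 (ENSMUSG00000074151, chromosome 8, 94434356 to 94527272, plus strand) encodes the transactivator of class I genes. It had 4.65, 4.23 and 4.38 FPKM in knockdown libraries, against 4.88, 4.97 and 5.08 FPKM in control libraries. All knockdown values were slightly below all control values, but the log2 change of -0.14 (SE 0.0730, 95% confidence interval -0.31 to 0.03) missed the threshold (limma adjusted p = 0.123). At this precision the upper end of the interval lies far below the change of the 8 genes that rose. The test was passed, still with lower values in knockdown, when mitochondrial genes, rRNA and Gm23935 were removed (log2 change -0.28, adjusted p = 0.00869) and with protein-coding genes only (-0.23, adjusted p = 0.0236).

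**Figure D2:**
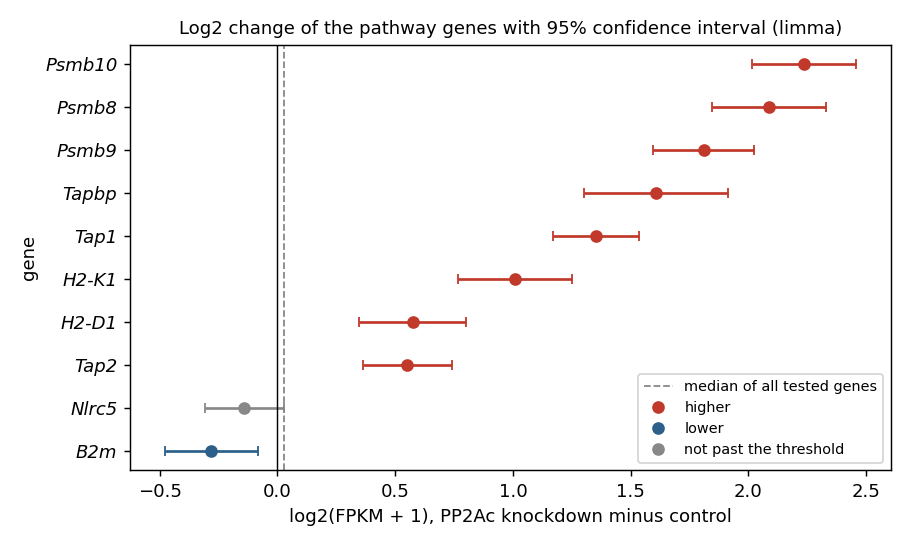
Log2 change of each pathway gene, PP2Ac knockdown minus control on the log2(FPKM + 1) scale, with its 95% confidence interval from limma. Psmb10 (2.24) is at the top and B2m (-0.28) at the bottom, the interval of Nlrc5 crosses 0, and the dashed line is the median of all tested genes (0.03).

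The order of levels per length changed with knockdown. In knockdown libraries it ran B2m, H2-D1, Tapbp, H2-K1, Psmb10, Tap2, Tap1, Psmb8, Psmb9 and Nlrc5, and each gene's lowest library was above the next gene's highest. In control libraries Tapbp and H2-K1 overlapped, Psmb10 stood below Tap2 and overlapped Tap1, and Nlrc5 was above Psmb8 and Psmb9, which overlapped. Between the highest and the lowest mean the span was 184-fold in knockdown and 1398-fold in control.

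The inducible catalytic subunits gained on the constitutive ones they replace. Psmb8 was at 5.11% ± 0.302 of the level of Psmb5 in knockdown libraries and at 0.811% ± 0.142 in control libraries (SD, n = 3 each). Psmb9 stood at 6.65% ± 1.11 of Psmb6 after knockdown and at 1.23% ± 0.153 in control. Psmb10 exceeded its counterpart Psmb7 after knockdown, at 129% ± 6.65, and was at 25.7% ± 2.50 of it in control. Psmb10 thus crossed the level per length of its constitutive counterpart in all 3 knockdown libraries, at 122%, 135% and 131%. In the other pairs the constitutive gene remained the higher per length. These percentages depend on the gene lengths of the deposited table, and whether those lengths match the transcripts expressed was not tested. On the log2(FPKM + 1) scale the ratio moved by 1.73 for Psmb8 over Psmb5, 1.43 for Psmb9 over Psmb6 and 2.22 for Psmb10 over Psmb7, and by 0.43 for H2-K1 over H2-D1, 0.92 for the heavy chains over B2m and 0.80 for Tap1 over Tap2. A ratio within a library does not depend on how that library was scaled, apart from the pseudocount. For each of these 6 ratios the 3 knockdown libraries were above the 3 control libraries, and a two-sided exact permutation test gave p = 0.1, its lowest possible value with 3 libraries a group (0.1 also after Benjamini-Hochberg adjustment over the 6), so none could pass 0.05.

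**Figure D3:**
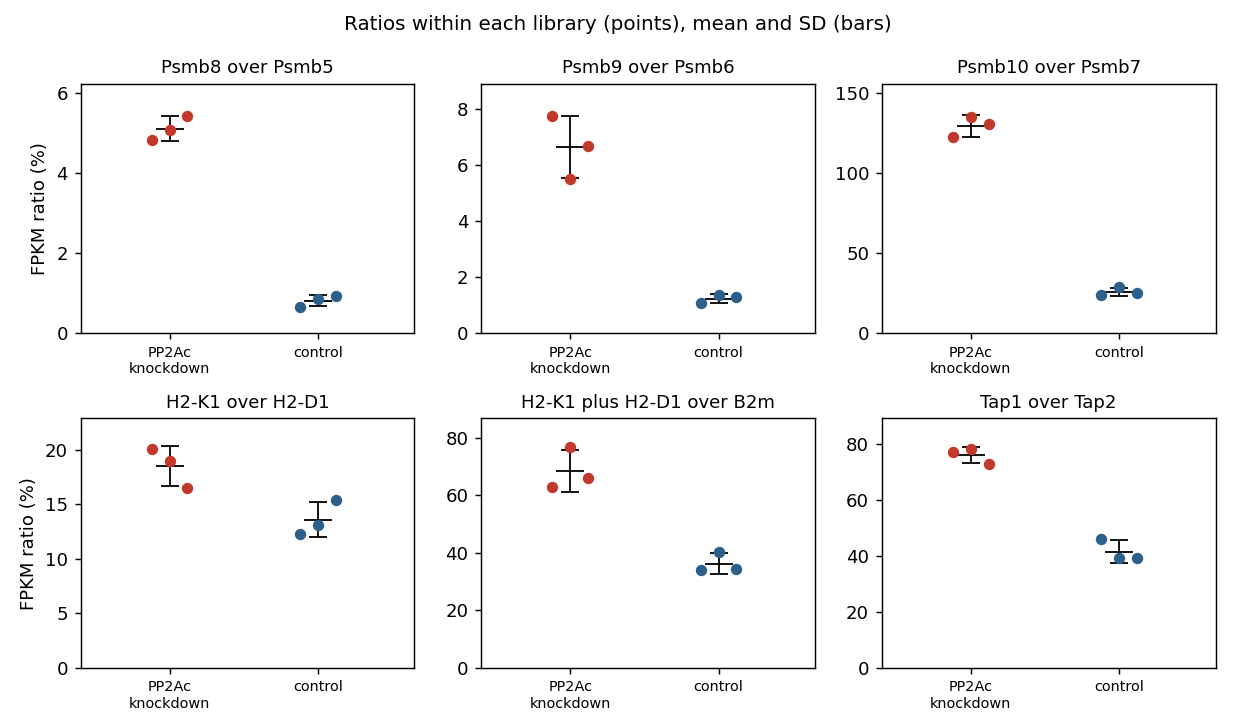
FPKM of one gene as a percentage of another within each library (points; 3 PP2Ac knockdown in red, 3 control in blue), with group mean and SD (n = 3) and vertical axes starting at 0. Psmb10 over Psmb7 lies above 100% in knockdown libraries only, and H2-K1 over H2-D1 shows the narrowest gap between the groups.

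The constitutive 20S core moved little. Of its 14 genes 10 rose, none fell and 4 missed the threshold, with a median log2 change of 0.29. For this and the next list, the shares over all tested genes were 33.3% higher and 29.1% lower. With mitochondrial genes, rRNA and Gm23935 removed only 3 rose and 1 fell (median 0.13), so the small rise of the core depended on the scaling. Psmb7 had 34.7, 38.1 and 34.6 FPKM in knockdown libraries, against 36.8, 35.5 and 33.7 FPKM in control libraries, and its groups overlapped. Psmb5 averaged 134 ± 12.04 FPKM in knockdown and 105 ± 14.7 FPKM in control (SD, n = 3 each; log2 change 0.35, limma adjusted p = 0.0276), and Psmb6 averaged 76.0 ± 9.16 FPKM in knockdown and 58.2 ± 8.74 FPKM in control (0.38, limma adjusted p = 0.0254). The calls of Psmb5 and Psmb6 were lost in several alternatives, among them no filter on low values (adjusted p = 0.0835 and 0.0800). Psma5 changed most of the core, at 132 ± 1.44 FPKM in knockdown and 74.1 ± 5.46 FPKM in control (log2 change 0.82). Among activators and assembly factors, 5 of 9 tested genes were higher, 1 was lower and 3 did not pass, with a median of 0.36. With mitochondrial genes, rRNA and Gm23935 removed 3 were higher and 1 was lower (median 0.21). Psme1 and Psme2 encode the PA28 activator, which interferon gamma induces. Psme1 had 70.1, 72.9 and 70.4 FPKM in knockdown libraries, against 26.1, 26.00 and 24.3 FPKM in control libraries (log2 change 1.45, limma adjusted p = 2.35e-06). Psme2 averaged 52.6 ± 7.89 FPKM in knockdown and 29.7 ± 5.94 FPKM in control (0.82, limma adjusted p = 0.00238). Psme3, the nuclear relative, rose by 0.40 and Psme4, a further activator gene, fell by 0.44 on the log2 scale (limma adjusted p = 0.000804 and 0.00452).

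Several other class I heavy chain genes rose as well. Of 25 heavy chain and class I-like genes in the table, 20 were H2 genes and 5 were relatives with other roles (Cd1d1, Cd1d2, Mr1, Hfe and Fcgrt). Only 9 of the 25 were high enough to test, of which 6 were higher, 1 was lower and 2 did not pass. All tested genes gave 33.3% higher and 29.1% lower. H2-T24 had a control mean below 1 FPKM and passed the filter only through its knockdown level, and without it 5 of 8 were higher. Among the H2 genes alone 5 of 7 were higher, or 4 of 6 without H2-T24. The sixth higher gene was Fcgrt, which encodes the neonatal Fc receptor (0.97) and was picked after its value was seen. H2-T22 had 49.3, 52.5 and 47.0 FPKM in knockdown libraries, against 10.14, 11.7 and 11.7 FPKM in control libraries (log2 change 2.06, limma adjusted p = 2.06e-06). Products of H2-T22 and H2-T10 are nonclassical molecules seen by gamma delta T cells. H2-Q4 averaged 69.3 ± 2.90 FPKM in knockdown and 24.4 ± 0.627 FPKM in control (1.47, limma adjusted p = 2.35e-06), and H2-T10 averaged 8.10 ± 0.700 FPKM in knockdown and 2.09 ± 0.296 FPKM in control. H2-T24 averaged 3.49 ± 0.218 FPKM in knockdown and 0.762 ± 0.189 FPKM in control (SD, n = 3 each). H2-M3, which presents formylated bacterial and mitochondrial peptides, was the exception, at 22.5 ± 2.46 FPKM in knockdown and 32.8 ± 3.19 FPKM in control (-0.53, limma adjusted p = 0.00194). H2-T23, which encodes Qa-1, averaged 3.88 ± 0.581 FPKM in knockdown and 2.90 ± 0.693 FPKM in control and did not pass (limma adjusted p = 0.0803). H2-M3 and H2-T23 were picked after their values were seen, and the reads of all these near-copies can be split between them.

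Genes that trim and load peptides went both ways, with 11 of 15 tested genes higher, 4 lower and a median log2 change of 0.42. The shares over all tested genes were 33.3% higher and 29.1% lower. With mitochondrial genes, rRNA and Gm23935 removed 9 were higher and 4 lower (median 0.27). Calr, which encodes the loading chaperone calreticulin, averaged 529 ± 31.0 FPKM in knockdown and 229 ± 8.02 FPKM in control (1.21, limma adjusted p = 9.54e-06). Pdia3, which encodes ERp57, the thiol partner of tapasin, averaged 249.9 ± 4.18 FPKM in knockdown and 140.4 ± 6.90 FPKM in control (0.83, limma adjusted p = 3.20e-05). Bcap31, which encodes an endoplasmic reticulum export receptor, rose by 0.80, and Nrd1, the peptidase gene nardilysin, fell by 0.76 on the log2 scale. Erap1 and Tapbpl were picked after their values were seen. Erap1, the peptide-trimming aminopeptidase gene, averaged 7.50 ± 0.406 FPKM in knockdown and 5.71 ± 0.717 FPKM in control (0.35, limma adjusted p = 0.0127), a call lost under that removal (adjusted p = 0.0821). Tapbpl, which encodes the second peptide editor TAPBPR, averaged 12.2 ± 0.912 FPKM in knockdown and 8.78 ± 0.305 FPKM in control (0.44, limma adjusted p = 0.00118).

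Of 18 tested transcription factors known to act on class I promoters, 11 rose, 2 fell and 5 missed the threshold, with a median of 0.32. Over all tested genes 33.3% were higher and 29.1% lower. Stat2 averaged 27.6 ± 1.21 FPKM in knockdown and 9.79 ± 0.162 FPKM in control (1.40, limma adjusted p = 3.04e-06; SD, n = 3 each). It encodes a signal transducer of interferon receptors. Irf9, its DNA-binding partner, averaged 23.6 ± 1.80 FPKM in knockdown and 11.9 ± 0.112 FPKM in control (0.93), and Irf1, a direct inducer of Psmb9 and Tap1, averaged 12.5 ± 0.547 FPKM in knockdown and 6.66 ± 0.507 FPKM in control (0.82; SD, n = 3 each). With mitochondrial genes, rRNA and Gm23935 removed, 8 factors rose and 3 fell (median 0.17). The 2 lower genes were Creb1 (log2 change -0.72) and Atf1 (-0.55), which encode related factors of the X2 box, and Rfx5, a subunit of the RFX complex that NLRC5 works with, rose by 0.89 (limma adjusted p = 0.000277, 0.000620 and 0.000138). These 3 genes were picked after their values were seen. The interferon genes on the list were at or near 0. Ifng was listed at 0 in all libraries, where 3 reads would have given at most 0.155 FPKM, and Ifnb1 had 2, 1 and 3 reads in knockdown libraries and 1, 1 and 0 reads in control libraries, too few to compare. All 5 tested receptor genes were higher, among them Ifnar1 (log2 change 0.60), Ifnar2 (0.58), Il10rb (0.43) and Ifngr1 (0.24), but only 2 of the 5 with mitochondrial genes, rRNA and Gm23935 removed.

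The class II pathway did not move with class I. Of 14 class II genes 10 had a mean below 1 FPKM, and H2-Aa and H2-Ab1, which encode a class II molecule, were at 0 in every library. Ciita, the class II counterpart of Nlrc5, had 2, 2 and 0 reads in knockdown libraries and 8, 3 and 4 reads in control libraries. Cd74, which encodes the invariant chain, was expressed nevertheless and fell, with 8.90, 10.7 and 5.46 FPKM in knockdown libraries, against 29.9, 37.2 and 41.0 FPKM in control libraries (log2 change -2.02, limma adjusted p = 9.50e-05). Ifi30, a lysosomal thiol reductase gene, rose by 0.68, Lgmn, a lysosomal protease gene, fell by 0.25 (limma adjusted p = 0.000113 and 0.0103), and H2-DMa averaged 3.72 ± 1.26 FPKM in knockdown and 4.25 ± 0.164 FPKM in control without passing.

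**Figure D4:**
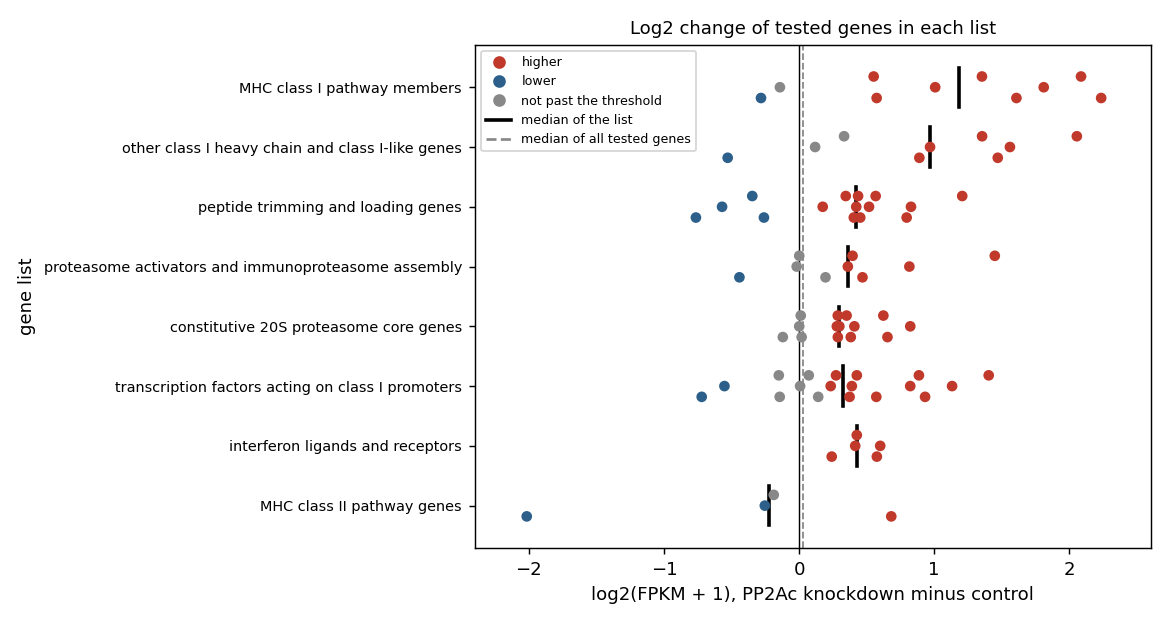
Log2 change of each tested gene in 8 lists, PP2Ac knockdown minus control on the log2(FPKM + 1) scale (points: red higher, blue lower, grey not past the threshold); black bars are list medians and the dashed line is the median of all tested genes (0.03). The 10 pathway genes (median 1.18) and the other class I genes (0.97) have the highest medians, and Cd74 (-2.02) is the lowest point of the class II list. Without genes that passed the filter only through their knockdown level, the medians of these lists are 0.79 and 0.93, in reverse order.

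Markers of cells that carry much class I were also read. Of 20 immune cell markers 17 had a mean below 1 FPKM and 9 were at 0 in every library, including Cd3e. Ptprc, the common leukocyte gene, had at most 3 reads in any library. The summed level of the list was 45.5 to 54.2 FPKM in knockdown and 34.8 to 39.0 FPKM in control, and consisted almost wholly of Cd14 (44.2 ± 4.81 FPKM in knockdown and 18.2 ± 2.26 in control), Cd68 (2.27 ± 0.310 in knockdown and 16.5 ± 3.82 in control) and Lyz2 (3.62 ± 1.19 in knockdown and 1.74 ± 0.154 in control). The 15 beta cell markers summed to 8.19 to 9.78 FPKM in knockdown and 3.02 to 4.70 FPKM in control, mostly Mafa and Pdx1. Of 11 fibroblast and endothelial markers 4 were tested, and all 4 were higher, against 33.3% of all tested genes. Col1a1 (log2 change 3.01), Col1a2 (0.73) and Pdgfrb (0.79) were among them. Pdgfra was called higher too (0.57, or 1.01 with a pseudocount of 0.1), but its control mean was below 1 FPKM, so it was tested only through its knockdown level. The other 7 had a mean below 1 FPKM. Of these, Dcn and Pecam1 had more reads in every knockdown library than in any control library, and Tek had fewer. Thy1 and Kdr had at most 2 reads in any library, and Lum and Cdh5 were at 0 throughout. The list summed to 250.7 to 279.8 FPKM in knockdown and 106 to 125 FPKM in control. The part of this shift in the class I result was not tested, and more cells with a transcript cannot be told apart from more RNA per cell.

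The 5 genes whose centred profile over the 6 libraries lay closest to the mean profile of the 10 pathway genes were Rab3d, Rcor2, Nfix, Tead2 and Rtcb, at Euclidean distances of 0.0496 to 0.0741 on the log2(FPKM + 1) scale. Rab3d, which encodes a secretory vesicle GTPase, averaged 12.7 ± 0.811 FPKM in knockdown and 5.34 ± 0.143 FPKM in control (SD, n = 3 each). The mean profile differed by 1.08 between knockdown and control.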

How the data were processed

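The authors deposited 1 table of FPKM values with the symbol, position and length of each gene. The builds are GRCm38 and mm10, per the submitters' processing notes; RNA was harvested in Trizol and sequenced from TruSeq libraries, per the labels' protocols. Aligner, counting tool and strandedness: not given in the sources used here. FPKM times gene length came in whole steps in every library (100% of values above 0, tolerance 0.01), and the number of steps was taken as the reads of the gene. The library total behind each step equalled the median-of-ratios size factor of those reads (0.964 to 1.060, from 15867 genes with a read in every library) times the geometric mean of the read totals, within 0.001%, so the deposited FPKM are already scaled that way.

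Groups were compared with limma 3.58.1 under R 4.3.3 (lmFit, eBayes with trend) on log2(FPKM + 1), restricted to genes averaging 1 FPKM or more. P-values were adjusted by Benjamini-Hochberg over all of them, and 0.05 was the threshold. The fit was run on simulated data with 200 changed genes and the same spread setting for every gene. Far more genes were called in the real data, so the simulation does not give the error rate of these calls. Ratios used two-sided exact permutation tests (scipy 1.17.1). Within groups, chi-square per degree of freedom was 7.15 to 11.0, so no libraries were merged. A gene at 0 was set against 3 reads, for counting error only.

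Members and lists were chosen with earlier results of these data known, and lists were described by counts and medians. Named genes were the 10 members, Ppp2ca, Psmb5, Psmb6, Psmb7, Psme1, Psme2, up to 4 genes with the smallest p per list, and the 5 nearest profiles; others are marked. A gene that the rule would name is not reported here. One listed symbol, H2-T9, was not used here, and Nrdc was matched to Nrd1 through RefSeq synonyms. Of the gene identifiers, 99.8% occur in GENCODE M21. Alternatives were other pseudocounts, filters, scalings, variance models, voom on recovered reads, a replicate block and each library left out in turn; scaling to total recovered reads was added after seeing the data. Tables were made with Python 3.11.15, numpy 2.4.6 and pandas 2.3.3.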

Additional observations from a re-analysis of the deposited data

How the results depend on the processing

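Under 17 alternatives the 8 members that rose kept their direction and passed the threshold wherever they were tested; Psmb8, Psmb9 and Nlrc5 were not tested with a mean FPKM of at least 5. The number of members called lower was 1 and became 0 with no filter on low values, 2 with mitochondrial genes, rRNA and Gm23935 removed and 2 with protein-coding genes only, and ranged from 0 to 1 when single libraries were left out, the cases given with B2m and Nlrc5. Genes lower in knockdown numbered 3388, and 2208 with a mean FPKM of at least 5, where fewer genes are tested. With mitochondrial genes, rRNA and Gm23935 removed and the libraries rescaled, where 11922 genes were tested against 11652, 2835 genes were higher and 4454 lower, and the median over all genes was -0.12 on the log2 scale. Protein-coding genes only gave 3212 higher and 3632 lower. With pseudocounts of 0.1 and 0.01 the log2 shift became 2.53 and 2.65 for Psmb8 over Psmb5, 2.27 and 2.41 for Psmb9 over Psmb6, and 2.32 and 2.33 for Psmb10 over Psmb7, as a smaller pseudocount shrinks low values less. Psmb7 reversed its sign in 4 alternatives, to -0.14 under the same removal, -0.0782 with protein-coding genes only, -0.0257 without knockdown library 2 and -0.0138 without control library 3 (range with single libraries left out -0.0257 to 0.0479); H2-DMa ranged from -0.3794 to 0.0135, positive without knockdown library 3 and passed without knockdown library 2 (log2 change -0.38, adjusted p = 0.0470). The cause was not tested. Of 873 values for the other named genes, 18 lost their call, and these were for Psmb5, Psmb6, Psma4, Ifngr1, Il10rb and Erap1.

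Libraries with the same number were not shown to be pairs: their deviations from the group means correlated at -0.01 to 0.16, and 3 of 6 libraries correlated best with their own number. With a replicate block 3919 genes were higher and 3444 lower, 8 members were higher and 1 lower, and the ratio shifts were the same. The median-of-ratios alternative divides all libraries by one constant, since the deposited values already carry it. Depth limits Psmb8 and Psmb9 in control, which rest on 33 to 43 reads per library.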

Other observations

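Some class I genes lay below the filter and were not tested. H2-Q6, a Qa-2 family heavy chain gene, had 27, 15 and 14 reads in knockdown libraries and 4, 2 and 2 reads in control libraries. Mr1, which encodes the class I-like molecule that shows microbial vitamin metabolites to MAIT cells, had 39, 53 and 46 reads in knockdown libraries and 20, 32 and 23 reads in control libraries. Both were above control in every knockdown library, and both were picked after their values were seen. Other genes below the filter went the other way. H2-M10.1 had 0, 0 and 2 reads in knockdown libraries and 3, 4 and 4 reads in control libraries. H2-M5 had 14, 7 and 8 reads in knockdown libraries and 9, 29 and 26 reads in control libraries.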
